A study of Arabidopsis thaliana with 6 samples.

Results

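The genes described here encode carriers of mineral nutrients, ions and water in Arabidopsis thaliana (thale cress). They were chosen as probe sets paired with exactly 1 gene whose symbol begins with a transporter family name and a number, the families being NRT, NPF, AMT, PHT, SULTR, ZIP, MTP, HMA, KUP, HAK, CAX, CHX, NHX, PIP, TIP and NIP. This rule found 11 probe sets, 1 for each of 11 genes, among the 22746 probe sets compared. They were 7 cation/proton exchangers (CHX6B, CHX15, CHX16, CHX19, CHX20, CHX21 and chx28), 3 carriers of zinc and other metals (ZIP6, ZIP9 and MTP11) and the nitrate transporter gene NRT2.5. The gene table holds 150 protein-coding genes whose symbol fits the rule, among them 23 CHX genes and 7 PIP5K genes, which encode lipid kinases and no transporter. Most transporter genes of these families are therefore not analysed here. Ammonium, phosphate, sulfate and potassium carriers and the water channels had 0 probe sets paired with 1 gene of a fitting symbol, and the label of water transport is not represented in the values below.

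RNA came from rosette leaves of untreated plants 3 weeks old, carrying the mutation named atrap or of the wild type (WT), with 3 Affymetrix arrays per genotype that the labels call biological replicates. The growth room was kept at 23 °C, and each day had 12 h light and 12 h dark. The labels give neither the allele nor the locus of the mutation, nor whether plants were pooled. ATRAP is a synonym of RAP (AT2G31890) in the gene table used here.

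Plant roots take up nitrate, phosphate, sulfate, potassium and metal ions through plasma membrane carriers, and leaf cells move the same ions between xylem, cytosol, vacuole and chloroplast. CHX proteins are thought to exchange monovalent cations such as potassium for protons on inner membranes, and many CHX genes are best known from pollen. ZIP proteins bring zinc and related metals into the cytosol, MTP proteins carry metals out of it into compartments, and NRT2 proteins take up nitrate at low outside concentrations.

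The RAP probe set read 6.72, 6.35 and 6.51 in the atrap arrays, against 7.87, 7.44 and 7.76 in the WT arrays (log2). Its log2 change was -1.16 ± 0.14 (standard error, n = 3 per genotype; limma, adjusted p = 0.00741). Some arrays stood apart within their genotype. Probe sets in which 1 array differed by over 1 log2 unit from the mean of the other 2, themselves within 0.5, were counted for each array. Atrap replicate 2 was higher in 158 and lower in 108, and WT replicate 3 was higher in 191 and lower in 6. WT replicate 1 was higher in 3 and lower in 42. The poly-A spike-in controls averaged 6.22 ± 0.07 in atrap and 6.56 ± 0.13 in WT (log2, 27 probe sets, SD, n = 3 each), and the signal of an actin control was 3-prime biased by 2.29 ± 0.01 in atrap and 2.65 ± 0.04 in WT. Their part in the results below was not tested. Marker and gene lists could be matched only to the probe sets that the annotation pairs with 1 gene, and a symbol without a match may still be on the array. RCA, the matched 1 of 11 mesophyll markers and a gene of photosynthetic leaf cells, read 14.91 ± 0.05 in atrap and 14.91 ± 0.02 in WT. These values lay near the highest of all probe sets, 15.01, where a difference could be missed.

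Of the 11 transporter genes, CHX20 fell in atrap leaves and the other 10 did not pass the test. The call used limma with an adjusted p under 0.05 over all probe sets, which 13.1% of all probe sets met, 6.7% as higher and 6.41% as lower. The count of 1 lower and 0 higher among 11 is near that background. At an unadjusted p under 0.05 the count was 4 of 11, beside 29.6% of all probe sets. The groups did not overlap for 4 of the 11, lower in atrap for CHX20 and ZIP6 and higher for CHX6B and ZIP9, beside 35.6% of all probe sets (19.1% higher and 16.5% lower). The median log2 change over the 11 was 0.07, beside 0.03 over all probe sets. In 8 of the 11 the WT mean was under log2 6. RMA, the authors' method, can compress changes at such levels, and the values do not tell whether such a transcript was present in the leaves. Of all probe sets with a mean under 6, 3.89% were called, beside 20.29% of the others.

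**Figure D1:**
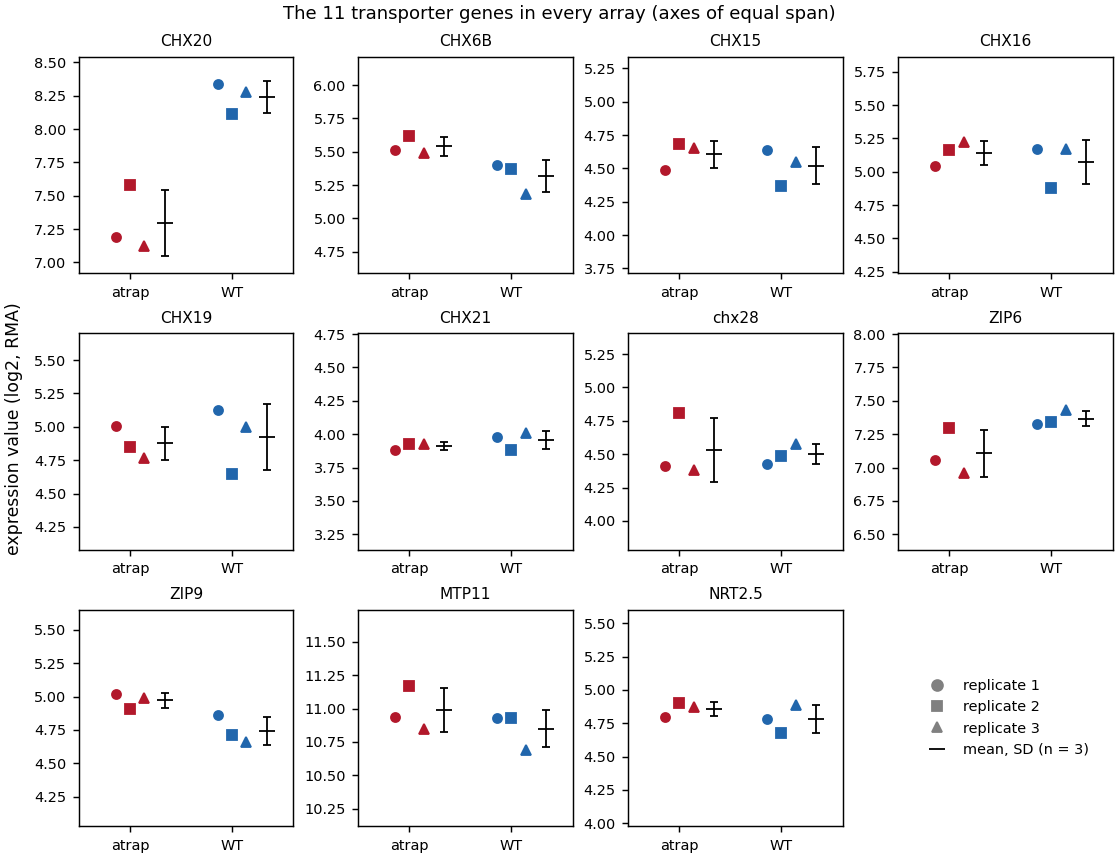
Expression value (log2, RMA) of the 11 transporter genes in each of the 3 atrap arrays (left, red) and 3 WT arrays (right, blue), with the mean and SD of each genotype as black marks. Every panel spans the same number of log2 units, and CHX20 stands out with atrap arrays at 7.12 to 7.58 and WT arrays at 8.11 to 8.34.

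CHX20 (AT3G53720) belongs to the cation/proton exchangers and is known from guard cells, the paired cells that open and close the leaf pores, where it acts in potassium and pH balance of inner membranes. It read 7.19, 7.58 and 7.12 in atrap replicates 1 to 3, against 8.34, 8.11 and 8.28 in WT replicates 1 to 3 (log2). The genotypes did not overlap, with atrap lower and a gap of 0.53 log2 units between the nearest pair, which were atrap replicate 2 and WT replicate 2. The means were 7.30 ± 0.25 in atrap and 8.25 ± 0.12 in WT (log2, SD, n = 3 each). CHX20 fell by 0.95 in log2 units (standard error 0.14), with a 95% confidence interval of -1.27 to -0.63 (limma, adjusted p = 0.0103), a 1.93-fold lower level. Without atrap replicate 1 the log2 change was -0.89 and did not pass (limma, adjusted p = 0.0554), and without atrap replicate 2 it was -1.09 (limma, adjusted p = 0.00581). A test of each probe set by its own variance alone gave the same change with an adjusted p of 0.0865. Over all probe sets, 350 were called without atrap replicate 1 and 48 by that test, beside 2981 as reported.

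In whole leaves, fewer cells of a type and less transcript per cell cannot be told apart. Of 7 guard cell markers, 1 was matched to a probe set of 1 gene. This was FMA, the gene of the transcription factor FAMA, which drives the last step of guard cell formation. It read 7.17, 7.17 and 7.10 in atrap, against 7.11, 6.85 and 7.06 in WT (log2). The FMA ranges overlapped, and its log2 change was 0.14, with a 95% confidence interval of -0.07 to 0.35 (limma, adjusted p = 0.353). The level of 1 marker does not give the number of guard cells. Of 6 trichome markers 1 was matched, TRY, which acts in the spacing of leaf hairs. It read 7.96, 7.84 and 7.87 in atrap, against 8.40, 8.52 and 8.11 in WT, and fell by 0.45 on the log2 scale (limma, adjusted p = 0.0435). Of all probe sets, 6.41% were called lower. An exact permutation test of TRY gave p = 0.1 (two-sided), the smallest possible with 3 arrays per genotype. SWEET11, the matched 1 of 7 phloem and companion cell markers, averaged 12.04 ± 0.13 in atrap and 12.08 ± 0.15 in WT, and the 3 of 14 root markers matched averaged 5.05 ± 0.06 in atrap and 5.16 ± 0.07 in WT (log2, SD, n = 3 each, exact permutation p = 0.7 and 0.1, two-sided). The root markers went different ways, with log2 changes of -0.54 for AGL42, 0.24 for EXPA7 and -0.05 for EXPA18, and the groups did not overlap for AGL42 and EXPA7 (limma, adjusted p = 0.0520, 0.102 and 0.765). Whether a change of cell types takes part in the CHX20 result was not tested.

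**Figure D2:**
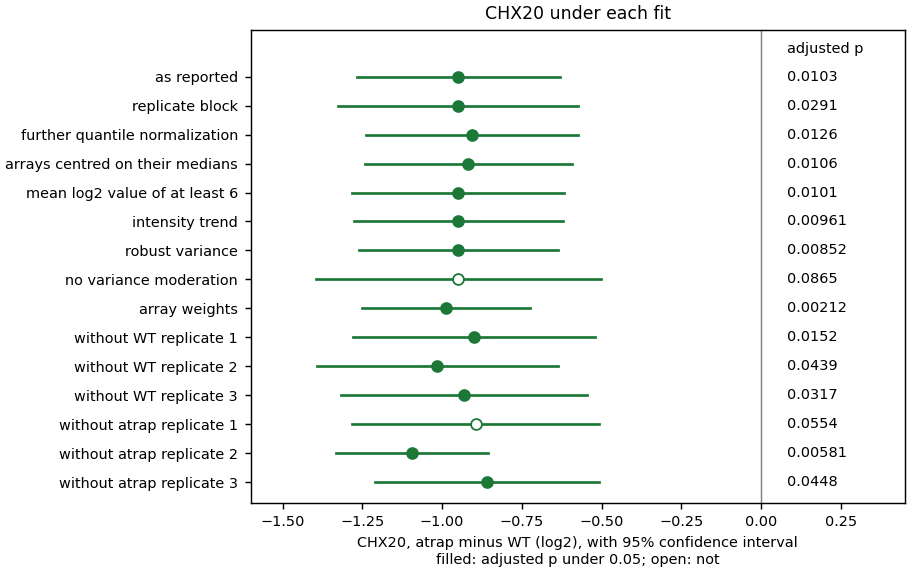
Log2 change of CHX20 between atrap and WT (points) with its 95% confidence interval (lines), as reported and under each of 14 other fits, with the adjusted p at the right. All 15 estimates lie between -1.09 and -0.86, and open points mark the fits in which the adjusted p was not under 0.05.

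The other 6 exchangers did not pass, and their means differed by less in size. CHX6B (AT1G08135), which lies next to its paralog CHX6A in gene order, read 5.51, 5.62 and 5.49 in atrap, against 5.40, 5.37 and 5.18 in WT (log2). The groups did not overlap, with a gap of 0.10, and the log2 change was 0.23 with a 95% confidence interval of 0.02 to 0.43 (limma, adjusted p = 0.135). CHX21 (AT2G31910), which with CHX23 is known from pollen tube guidance, is the second protein-coding gene after RAP in gene order. It read 3.88, 3.93 and 3.93 in atrap, against 3.98, 3.88 and 4.01 in WT. The CHX21 ranges overlapped, and its log2 change was -0.04, with an interval of -0.22 to 0.13 (limma, adjusted p = 0.743).

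The remaining 4 overlapped between genotypes as well. CHX15 (AT2G13620) read 4.49 to 4.68 in atrap and 4.37 to 4.64 in WT, and CHX16 (AT1G64170) read 5.04 to 5.22 in atrap and 4.88 to 5.17 in WT. CHX19 (AT3G17630) read 4.77 to 5.01 in atrap and 4.65 to 5.13 in WT. The gene chx28 (AT3G52080) read 4.41, 4.81 and 4.38 in atrap, against 4.43, 4.49 and 4.58 in WT, so that atrap replicate 2 was above the WT range while the other 2 atrap arrays were below it. Their log2 changes were 0.08, 0.07, -0.04 and 0.03 in that order, and the adjusted p from limma ran from 0.623 to 0.893. The interval of CHX20 did not reach that of any other exchanger, the lowest of which began at -0.36 for CHX19. All 6 had a WT mean under log2 6, so a change of the transcript could be larger than the values show. Equally, the values do not tell whether these 6 transcripts were present in the leaves. The median log2 change of the 7 exchangers was 0.03, equal to that of all probe sets to 2 decimals.

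The 3 metal carriers did not pass, and they differed from each other in sign. ZIP6 (AT2G30080) read 7.06, 7.30 and 6.96 in atrap, against 7.33, 7.34 and 7.43 in WT (log2). Each atrap array was lower, though atrap replicate 2 came within 0.03 of the nearest WT array. The log2 change was -0.26 with a 95% confidence interval of -0.50 to -0.02 (limma, adjusted p = 0.140). Without atrap replicate 2 it was -0.36 and passed (limma, adjusted p = 0.0446). With any other array left out ZIP6 did not pass (limma, adjusted p = 0.167 to 0.342). In all, its change passed in 2 of 14 alternative fits.

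ZIP9 (AT4G33020), a gene known to be raised by zinc deficiency, read 5.02, 4.91 and 4.99 in atrap, against 4.86, 4.71 and 4.66 in WT. The atrap arrays were all higher, by 0.05 between the nearest pair, and the log2 change was 0.23 with an interval of 0.04 to 0.43 (limma, adjusted p = 0.111). MTP11 (AT2G39450), a carrier that loads manganese into Golgi-linked compartments, read 10.94, 11.17 and 10.85 in atrap, against 10.93, 10.93 and 10.69 in WT. The MTP11 ranges overlapped, and the log2 change of 0.14 had an interval of -0.13 to 0.40 (limma, adjusted p = 0.468). The median log2 change of the 3 genes was 0.14.

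NRT2.5 (AT1G12940), a high-affinity nitrate transporter gene known to be induced by nitrogen starvation, read 4.80, 4.90 and 4.87 in atrap, against 4.78, 4.68 and 4.89 in WT. The values overlapped and lay in a range where changes can be compressed or a transcript may be absent. The log2 change was 0.07 with an interval of -0.12 to 0.26 (limma, adjusted p = 0.616). Taking the 10 genes that did not pass as a set, the 95% confidence intervals ran from -0.50 at the lowest to 0.43 at the highest, which leaves room for a difference of up to 1.42-fold in the measured value.

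**Figure D3:**
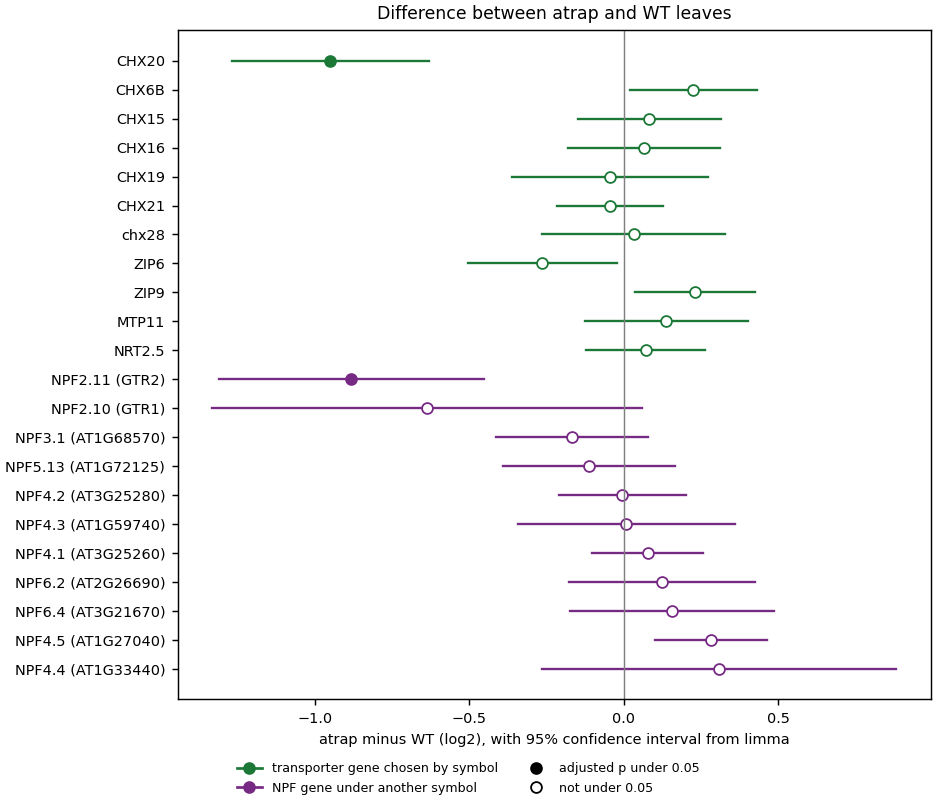
Log2 change between atrap and WT (points) with its 95% confidence interval from limma (lines) for the 11 transporter genes (green) and 11 NPF genes that the gene table holds under another symbol (purple). Filled points have an adjusted p under 0.05, which CHX20 at -0.95 and GTR2 at -0.88 reached, both lower in atrap.

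A further 11 genes with a probe set of their own carry a family name as a synonym, though not as their symbol, and all 11 are NPF genes. The NPF family, also called NRT1/PTR, holds carriers of nitrate, peptides, hormones and glucosinolates, the sulfur-rich defence compounds of this plant family. Of the 11, GTR2 fell and 10 did not pass, near the 13.1% of all probe sets called and the 6.41% called lower. The median log2 change of the 11 was 0.01, beside 0.03 over all probe sets. In 5 of the 11 the WT mean was under log2 6, where changes can be compressed or a transcript may be absent. GTR2 (AT5G62680, NPF2.11) and GTR1 (AT3G47960, NPF2.10) encode glucosinolate transporters that load these compounds into the phloem.

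GTR2 read 8.11, 8.33 and 8.18 in atrap, against 8.94, 8.80 and 9.52 in WT (log2). All atrap arrays were lower, and WT replicate 3 was the highest. GTR2 fell by 0.88 in log2 units, standard error 0.18 (limma, adjusted p = 0.0248), or 1.84-fold. Without WT replicate 3 the log2 change was -0.66 (limma, adjusted p = 0.0278), and without WT replicate 2, atrap replicate 1 or atrap replicate 3 it was -1.02, -0.83 and -0.87 and did not pass (limma, adjusted p = 0.0537, 0.0962 and 0.0832). With its own variance alone GTR2 had an adjusted p of 0.132. Over all probe sets the fits in which GTR2 did not pass called 438, 350, 629 and 48 in that order, beside 2981 as reported. GTR1 read 8.58, 9.07 and 8.68 in atrap, against 8.95, 9.16 and 10.12 in WT. The GTR1 ranges overlapped, as WT replicate 1 lay below atrap replicate 2, and WT replicate 3 was far the highest array. Its log2 change was -0.64 (limma, adjusted p = 0.204), and without WT replicate 3 it was -0.28 (limma, adjusted p = 0.347).

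Among the other 9 NPF genes, AT1G27040 (NPF4.5) read 4.69, 4.84 and 4.79 in atrap, against 4.53, 4.44 and 4.51 in WT. These values did not overlap, and the log2 change of 0.28 did not pass (limma, adjusted p = 0.0537). The change of AT1G27040 passed in 3 of 13 alternative fits. For the other 8 the ranges overlapped. AT3G21670 (NPF6.4) read 11.76 to 12.22 in atrap and 11.61 to 11.90 in WT. AT2G26690 (NPF6.2) read 10.16 to 10.40 in atrap and 9.88 to 10.32 in WT. AT1G68570 (NPF3.1), known as a gibberellin carrier, read 9.78 to 10.07 in atrap and 10.03 to 10.21 in WT. The log2 changes of these 3 genes were 0.16, 0.12 and -0.17. AT1G33440 (NPF4.4) had a log2 change of 0.31 with an interval of -0.27 to 0.88, and its SD was 0.43 in atrap and 0.35 in WT (n = 3 each). The change became 0.10 when atrap replicate 3 was left out and 0.53 when atrap replicate 1 was. AT1G59740 (NPF4.3), AT3G25260 (NPF4.1), AT3G25280 (NPF4.2) and AT1G72125 (NPF5.13) had log2 changes of 0.01, 0.08, -0.0037 and -0.11.

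Lists of genes that assimilate the carried nutrients, signal their supply or energise transport were sparsely matched. For sulfur assimilation, 4 of 23 listed symbols were matched and 1 of the 4 fell, where 6.41% of all probe sets were called lower. APS4, an ATP sulfurylase that starts the use of sulfate, read 9.20, 9.37 and 9.14 in atrap, against 9.61, 9.85 and 9.95 in WT. The groups did not overlap, and APS4 fell by 0.57 on the log2 scale (limma, adjusted p = 0.0220). This call was lost without WT replicate 2 or 3 or atrap replicate 1 or 3, where the log2 change was -0.55, -0.49, -0.55 and -0.52, and with its own variance alone (adjusted p = 0.106). Over all probe sets these fits called 438, 1260, 350, 629 and 48 in that order, beside 2981 as reported. APS3, the paralog of APS4, read 8.10, 8.68 and 8.16 in atrap, against 8.36, 8.79 and 9.41 in WT, with WT replicate 3 highest, as for GTR1. The APS3 ranges overlapped, and its log2 change was -0.54 (limma, adjusted p = 0.240), or -0.26 without WT replicate 3 (limma, adjusted p = 0.517). SIR, the sulfite reductase of the chloroplast, read 10.55, 10.57 and 10.50 in atrap, against 10.84, 10.72 and 10.76 in WT, without overlap. Its log2 change of -0.24 did not pass (limma, adjusted p = 0.0749), nor did that of BGLU28, a beta-glucosidase gene raised by sulfur starvation, at -0.07. BGLU28 read 4.27 to 4.35 in atrap and 4.30 to 4.46 in WT, in the range where changes can be compressed or a transcript may be absent.

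**Figure D4:**
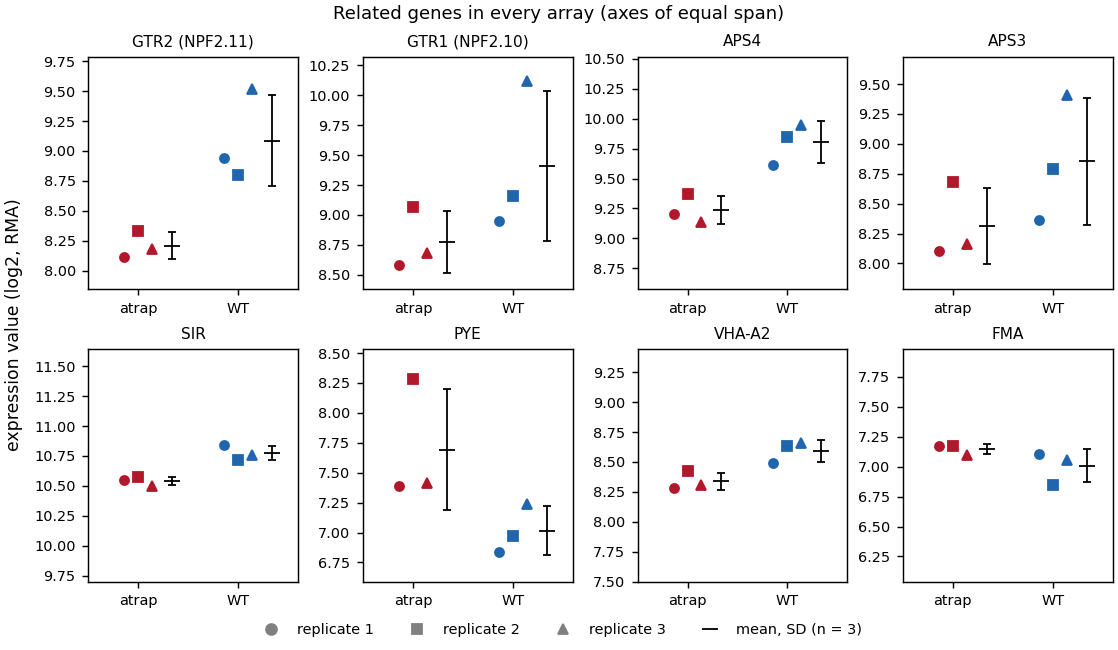
Expression value (log2, RMA) of 8 related genes in each of the 3 atrap arrays (left, red) and 3 WT arrays (right, blue), with the mean and SD of each genotype as black marks and axes of equal span. WT replicate 3 (triangle) is the highest WT array for GTR2, GTR1, APS4 and APS3, at 9.52, 10.12, 9.95 and 9.41.

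For iron and other metals, 3 of 45 symbols were matched and 0 passed by limma. FRO1 and PYE had an unadjusted p under 0.05 (limma), which 29.6% of all probe sets had. The symbol FRO1 led to the gene FROSTBITE1 (AT5G67590), which shares its symbol with a ferric reductase and is no metal gene. PYE and BHLH101 remained, and of these only PYE had an unadjusted p under 0.05 (limma). PYE, a transcription factor of the iron deficiency response, read 7.39, 8.28 and 7.41 in atrap, against 6.84, 6.97 and 7.24 in WT. All atrap arrays were higher, and atrap replicate 2 stood far above the other 2. The log2 change of 0.68 did not pass (limma, adjusted p = 0.112), and without atrap replicate 2 it was 0.38. BHLH101, a further iron deficiency regulator, had a log2 change of -0.31 (limma, adjusted p = 0.258).

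The proton pump list had 2 of 18 symbols matched, the vacuolar ATPase subunit genes VHA-A2 and VHA-A3. Their log2 changes were -0.26 and -0.05 and neither passed (limma, adjusted p = 0.0832 and 0.676), though the VHA-A2 values did not overlap, at 8.28 to 8.42 in atrap and 8.49 to 8.66 in WT. Phosphate signalling had SIZ1, a SUMO ligase gene, as its single matched symbol of 21, with log2 changes of 0.04 and -0.06 in its 2 probe sets. Of the 28 listed symbols for nitrogen assimilation and the 23 for potassium and sodium channels and their regulators, 0 were matched to a probe set of 1 gene.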

How the data were processed

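The deposited table holds 1 log2 expression value per probe set and array. The submitters' processing notes name RMA as the authors' method; which program and probe set definition they used is not stated in the sources used here. Values ran from 3.12 to 15.01, which fits a log2 scale. RMA equalises array distributions, so a shift of all transcripts would be removed. The 64 control probe sets were left out. In the array annotation 13513 probe sets had 1 gene and 503 had several, while 8730 were unlisted. Symbols were updated by gene identifier through a TAIR10.1 gene table, which matched 13436 of the 13513.

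Genotypes came from sample titles. All 22746 probe sets were fitted with limma 3.58.1 in R 4.3.3 (eBayes after lmFit, with two-sided p adjusted after Benjamini-Hochberg), without a dim filter or replicate block. The script was tested on simulated data. Members and lists were chosen with earlier results of these data known. All 11 members are named. Related genes were to be named if past the threshold, otherwise the 2 with the smallest p. GTR1, the other NPF genes, APS3, SIR and BGLU28 fall outside this and were named to account for their lists. Summed markers were set for an exact permutation test, whose smallest p with 3 arrays per genotype is 0.1. The promoter motifs planned were not analysed here. Tables and figures used Python 3.11.15, pandas 2.3.3 and matplotlib 3.10.9.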

Additional observations from a re-analysis of the deposited data

How the results depend on the processing

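The count of transporter genes lower in atrap was 1, and it was 0 without variance moderation, 0 at an adjusted p under 0.01 (CHX20 has 0.0103), 2 with array weights and 0 to 2 when 1 array was left out. It was 0 without atrap replicate 1, and 2 without atrap replicate 2, where ZIP6 was added. Over all probe sets, calls in either direction numbered 2981 as reported, 48 without variance moderation and 5325 with array weights. They numbered 350 without atrap replicate 1 and 2662 without atrap replicate 2. The count higher was 0, with 2 of the 7 positive changes at an unadjusted p under 0.05, and it was 1 with array weights, which added ZIP9. The median log2 change of the 3 metal carriers was 0.14, and it was -0.0626 over the 2 left at a mean of at least log2 6 and 0.0456 to 0.205 when 1 array was left out. The median of the 7 exchangers ran from -0.03 to 0.10 over the alternatives, with either sign. For these the cause was not tested, apart from the stricter threshold and the smaller set of genes. Of 146 values of single transporter genes under the alternatives, 141 stayed on their side of the threshold, 2 lost it, 3 gained it and 0 reversed by limma or the unmoderated test, while 8 changes of 3 genes that did not pass had the other sign. The dim filter left 3 of the 11 genes. The correlation of deviations between arrays of the same number was 0.13, 0.02 and -0.15, so the numbers do not clearly pair the plants, and with the replicate block the count was again 1 lower and 0 higher (CHX20, limma, adjusted p = 0.0291). Arrays have no read depth, and 8 of the 11 genes had a WT mean under log2 6.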

Other observations

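A further 11 genes with a probe set of their own have a synonym with a word for membrane transport and are neither among the transporter genes above nor NPF genes. This list was made after the annotation and fold changes had been seen, so it is given as values. TMT1, a sugar carrier of the vacuole membrane, read 7.91, 7.99 and 8.24 in atrap, against 8.41, 8.48 and 8.39 in WT (log2). The groups did not overlap, and TMT1 had a log2 change of -0.38 (limma, adjusted p = 0.0485), with an adjusted p of 0.0245 to 0.160 over 14 alternatives of which 11 gave a value over 0.05. Its paralogs TMT2 and TMT3 had changes of 0.04 and 0.27 (limma, adjusted p = 0.734 and 0.0704). The organic cation carriers OCT1, OCT4 and OCT5 had changes of 0.03, -0.06 and -0.32. SAMTL, named as a transporter-like gene for S-adenosyl methionine, had a change of 0.35 (limma, adjusted p = 0.139). AT1G53210, a sodium/calcium exchanger gene, read 11.92, 11.92 and 12.02 in atrap, against 11.65, 12.08 and 12.19 in WT, with a change of -0.02. AT5G52050, TAAC and PUP15 had changes of -0.03, -0.01 and -0.01.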
